A study of Macaca mulatta with 24 samples.

Results

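Microtubule motors and tubulins were followed across the frontal cortex of rhesus monkeys. The members were all probe sets annotated with a single gene symbol that begins with KIF and a digit, KLC, DYNC, DYNL, DCTN, TUBA or TUBB. They numbered 99 of the 52766 probe sets on the array and named 54 of the 14132 genes named alone on a probe set: 29 kinesin heavy chains (56 probe sets), 4 kinesin light chains (6), 7 dynein chains (15), 4 dynein light chains (5), 5 dynactin subunits (8), 2 alpha-tubulins (2) and 3 beta-tubulins (7). The intensity filter, which keeps probe sets whose mean log2 intensity is at least the median of all, 5.62, left 65 of them in the tests (37 genes). Names of several abundant neuronal motors and tubulins, among them KIF1A, DYNC1I1, TUBA1A and TUBB2A, are on no probe set of this annotation, so these genes are not analysed here.

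RNA was measured on 24 one-colour Affymetrix Rhesus arrays. One array was run for each dissected piece of M1 (the forelimb region of primary motor cortex), PMd and PMv (dorsal and ventral premotor cortex) and A46 (prefrontal area 46), from the left and right hemispheres of 3 group-caged Macaca mulatta without experimental treatment. Animals 1 and 2 were males of 2.7 and 2.6 years and animal 3 was a female of 2.7 years. The pieces are whole cortex, in which fewer cells of a type and less RNA per cell cannot be told apart. The left PMv arrays of animals 1 and 2 stood apart, with median correlations of 0.984 and 0.988 with the other arrays, against 0.991 to 0.993 for the other 22. Without either one, 15 and 11 members passed in M1 minus A46, against 11 with all arrays. Over all 26383 probe sets tested the counts were 4182 and 3345, against 3391 with all arrays.

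Microtubules are polymers of alpha- and beta-tubulin, and in an axon their fast-growing ends point away from the cell body. Many kinesins carry cargo such as vesicles, mitochondria and cytoskeletal proteins towards those ends, with light chains that select cargo for the KIF5 motors. Cytoplasmic dynein, assisted by dynactin, carries cargo back to the cell body. Primary motor cortex holds the large layer 5 neurons whose axons reach the spinal cord, which makes the transport machinery of long axons of interest in a comparison of motor with prefrontal areas.

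M1 was first set against A46, the 2 ends of the motor to prefrontal series. Of the 65 tested member probe sets 11 passed limma's threshold (Benjamini-Hochberg adjusted p under 0.05), 8 higher and 3 lower in M1, each from a different gene. That is 16.9% of the members, against 12.9% of all 26383 probe sets tested, and 7.49% of all were higher and 5.36% lower. The members' median log2 difference was -0.01, the same as the -0.01 of all probe sets, and 30 of the 65 differences were positive. Of the 11 differences, 0 reached 1.5-fold. Read against these backgrounds the counts are near those of the array as a whole, and the values below belong to single genes. All 11 had the same sign in 3 of 3 animals, although DYNLL1 barely differed in animal 3. The test that chose them used these same differences, which favours such agreement. Its share over all probe sets called was not examined. The 6 M1 arrays did not overlap the 6 A46 arrays in 5 of 65 members (7.69%), against 8.68% of all probe sets. Of these 11 calls, 1 remained without animal 1 (DYNC1LI2), 0 without animal 2 and 10 without animal 3 (all but KIF17). Their signs could not change in these fits, being the same in each animal. Without the animal as a block 1 remained (KIF6), and in left hemispheres alone 0 did. The number of calls changed over the whole array too. Of all 26383 probe sets, 3391 were called with all arrays, and 1648, 403 and 5410 without animal 1, 2 and 3. The members called in these leave-out fits, old or new, numbered 2, 0 and 20. Without the block 1056 of all were called, and in left hemispheres alone 1263.

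**Figure D1:**
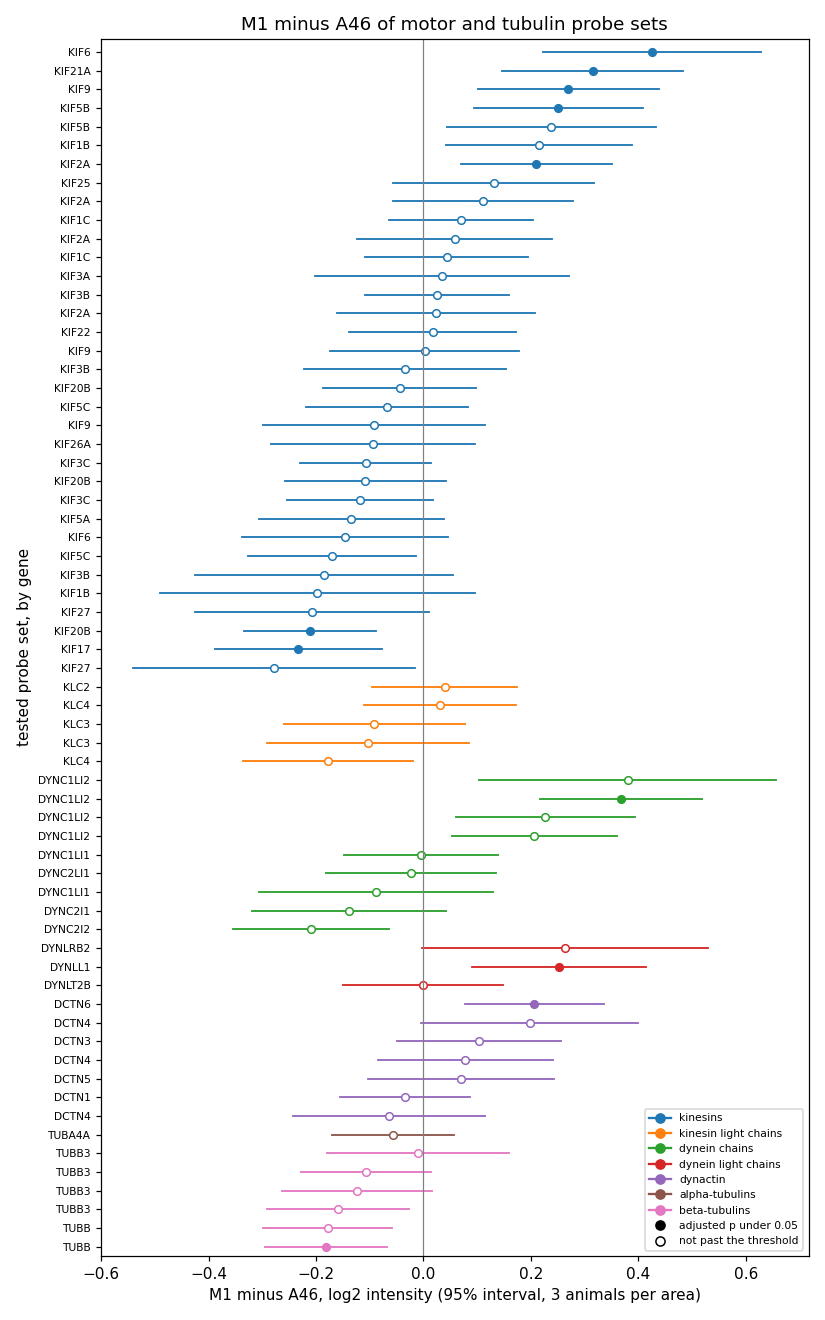
M1 minus A46 for the 65 tested probe sets, in log2 intensity on the horizontal axis, with 95% intervals from limma and 1 row per probe set, coloured by family. Filled points mark the 11 with an adjusted p under 0.05; all 7 tubulin probe sets lie left of 0, and the kinesins run from -0.28 to 0.43.

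Dynein gave the only member that passed the F test over all 4 areas. DYNC1LI2, a light intermediate chain that links dynein to cargo adaptors, has 4 tested probe sets. On the probe set that passed (MmugDNA.27201.1.S1_at), the lowest, median and highest log2 intensity were 9.92, 10.05 and 10.23 over the 6 M1 arrays, against 9.58, 9.68 and 9.87 over the 6 A46 arrays. Every M1 array lay above every A46 array. The difference was 0.37 (SE 0.07, 1.29-fold, adjusted p = 0.00379 by limma), and the F test gave an adjusted p = 0.0219, the 1 call among 65 members (1.54%) against 6.53% of all probe sets. The area means ran down from M1 through the premotor areas, at 10.08 in M1, 9.90 in PMd, 9.79 in PMv and 9.71 in A46. Its other 3 probe sets had M1 minus A46 differences of 0.21, 0.23 and 0.38, with adjusted p = 0.0775, 0.0743 and 0.0706, and so did not pass.

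The paralogous light intermediate chain DYNC1LI1 did not pass on either of its 2 tested probe sets (-0.09 and -0.01, adjusted p = 0.651 and 0.975). DYNC1H1, the heavy chain that holds the motor domain, and DYNC1I2, an intermediate chain that binds dynactin, lay below the intensity filter on all their probe sets and were not tested. The chains of dynein-2, the motor of cilia, did not pass: DYNC2I2 differed by -0.21 (SE 0.07, adjusted p = 0.0575), DYNC2I1 by -0.14 (adjusted p = 0.334) and DYNC2LI1 by -0.02 (adjusted p = 0.893). Of the 9 dynein chain probe sets 1 therefore rose and 0 fell, with a family median of -0.01.

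Among the dynein light chains DYNLL1, a small dimer that binds dynein and many other proteins, rose. Its M1 arrays had a lowest, median and highest log2 intensity of 12.38, 12.44 and 12.59, against 12.03, 12.18 and 12.41 for A46. The ranges overlapped, and M1 was above A46 in 5 of the 6 pieces matched by animal and hemisphere. The difference was 0.25 (SE 0.08, 1.19-fold, adjusted p = 0.0433 by limma), and it was uneven between animals, with 0.41 in animal 1, 0.35 in animal 2 and 0.00 in animal 3. DYNLRB2 (0.26, SE 0.12, adjusted p = 0.197) and DYNLT2B (-0.00, adjusted p = 0.994) did not pass.

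In dynactin, the complex that makes dynein processive, DCTN6 rose. DCTN6 is a subunit of the pointed-end cap of the dynactin filament. Its M1 arrays ran from 9.34 to 9.58 with a median of 9.46, against 9.15 to 9.42 with a median of 9.24 in A46. The ranges overlapped slightly, while all 6 matched pieces were higher in M1. The difference was 0.21 (SE 0.06, 1.15-fold, adjusted p = 0.0389 by limma). DCTN1, the large subunit that contacts microtubules, did not pass (-0.03, 95% interval -0.16 to 0.09, adjusted p = 0.774), nor did DCTN3 (0.10), DCTN5 (0.07) or the 3 tested probe sets of DCTN4 (-0.06 to 0.20).

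Of the 34 kinesin probe sets 5 rose and 2 fell, with a median of -0.02. The cargo carriers KIF1, KIF3, KIF5 and KIF17 had 16 tested probe sets, of which 1 rose and 1 fell. The one that rose was KIF5B, the conventional kinesin heavy chain found in most cell types. On its brighter probe set (MmugDNA.8525.1.S1_at) the M1 arrays spanned 11.04 to 11.16 with a median of 11.06, against 10.70 to 11.003 with a median of 10.79 in A46. The M1 values were narrow and lay above every A46 array. The difference was 0.25 (SE 0.07, 1.19-fold, adjusted p = 0.0389 by limma), and the second probe set gave 0.24 (SE 0.09, adjusted p = 0.107). On both, M1 was highest, PMd followed, and PMv was the lowest.

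The neuronal forms of the same motor had differences of the other sign and did not pass. KIF5A, which carries neurofilaments and is mutated in a form of hereditary spastic paraplegia in humans, averaged 9.80 on the log2 scale in M1 and 9.94 in A46 (difference -0.13, 95% interval -0.31 to 0.04, adjusted p = 0.327). KIF5C, at 12.29 in M1 and 12.46 in A46 on its brighter probe set, differed by -0.17 (95% interval -0.33 to -0.01, adjusted p = 0.153), and on the other by -0.07. Whether KIF5B differs from KIF5A and KIF5C in its response was not tested. Their light chains KLC2 (0.04), KLC3 (-0.10 and -0.09) and KLC4 (-0.18 and 0.03) did not pass either, with 0 calls among 5 probe sets, and KLC1 lay below the intensity filter.

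KIF17, which carries NMDA receptor vesicles along dendrites in mouse neurons, fell. Its M1 arrays had 7.32, 7.44 and 7.51 as lowest, median and highest log2 intensity, against 7.56, 7.65 and 7.74 in A46. No M1 array reached the A46 range. The difference was -0.23 (SE 0.07, 1.18-fold, adjusted p = 0.0497 by limma), close to the threshold. The heterotrimeric kinesin-2 subunits KIF3A (0.03), KIF3B (-0.19 to 0.02 over 3 probe sets) and KIF3C (-0.11 and -0.12) did not pass. KIF1C, a carrier of dense-core vesicles, did not pass either (0.04 and 0.07).

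KIF1B, a carrier of synaptic vesicle precursors and mitochondria, was split between its probe sets. One was 0.22 higher in M1 than in A46 (SE 0.08, adjusted p = 0.101) and the other 0.20 lower (difference -0.20, SE 0.14, adjusted p = 0.405). The second had its lowest area mean in PMv, at 9.14 in M1, 9.04 in PMd, 8.86 in PMv and 9.33 in A46, with a premotor minus A46 difference of -0.38 (SE 0.12, adjusted p = 0.0917 by limma). Animal 3 did not share this pattern. Its left and right arrays were at 9.65 and 9.34 in PMv and at 9.46 and 9.31 in A46. In animals 1 and 2 the arrays ran from 8.46 to 8.68 in PMv and from 9.09 to 9.43 in A46. Which transcripts each probe set reads is not given in the annotation.

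Of 5 tested probe sets of kinesins that act on the microtubule itself 2 rose, with a median of 0.11. KIF21A, which restrains microtubule growth and is mutated in a human eye movement disorder, spanned 8.308 to 8.999 in M1 with a median of 8.82, against 7.97 to 8.65 in A46 with a median of 8.55. The ranges overlapped, the arrays of animal 3 being the lowest in both areas, and all 6 M1 pieces exceeded their A46 partners of the same animal and hemisphere. The difference was 0.31 (SE 0.08, 1.24-fold, adjusted p = 0.0181 by limma), at 0.28, 0.35 and 0.32 in animals 1, 2 and 3. Its second probe set, with a mean log2 intensity of 4.97, fell below the filter and took no part in the test, but it had 4.97, 5.31 and 5.89 as lowest, median and highest in M1, against 4.00, 4.43 and 4.72 in A46. In a fit without the filter its difference was 1.01 (SE 0.13, 2.01-fold, adjusted p = 0.000227 by limma), and its area means of 5.42 in M1, 5.19 in PMd, 4.87 in PMv and 4.41 in A46 ran in the same order as those of the first.

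KIF2A, which removes tubulin from microtubule ends and limits axon branching in mice, rose on 1 of 4 probe sets. That probe set had 8.54, 8.68 and 8.87 as lowest, median and highest in M1, against 8.42, 8.45 and 8.65 in A46, so that the ranges overlapped in part. The difference was 0.21 (SE 0.06, 1.16-fold, adjusted p = 0.0496 by limma), and the other 3 gave 0.02 to 0.11 with no call. In A46 the left piece of animal 1 alone reached 8.65, and the other 5 lay between 8.42 and 8.47.

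**Figure D2:**
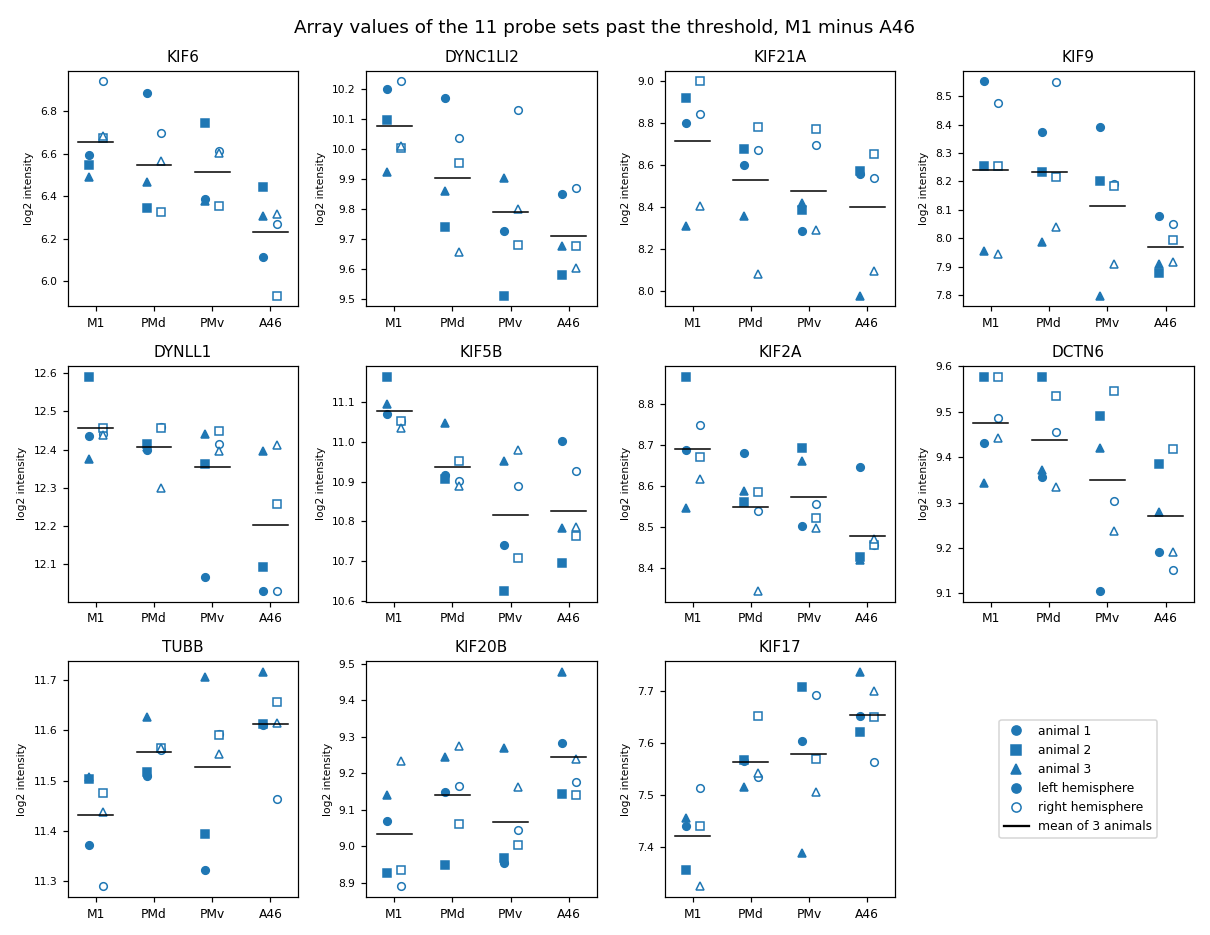
Log2 intensity on every array for the 11 probe sets past the threshold in M1 minus A46, with areas on the horizontal axis, 1 point per array (shape for animal, filled for left and open for right hemisphere) and a bar at the mean of 3 animals. KIF5B, KIF6, DYNC1LI2 and KIF17 show no overlap between M1 and A46, and the vertical scale differs between panels.

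Kinesins of cilia and flagella also gave calls, although their probe sets disagreed. KIF6 spanned 6.49 to 6.94 in M1 with a median of 6.63, against 5.93 to 6.44 in A46 with a median of 6.29, with no overlap. The difference of 0.43 (SE 0.09, 1.34-fold, adjusted p = 0.00977 by limma) was the largest among the members tested, but the second KIF6 probe set gave -0.15 (adjusted p = 0.339). KIF9 was higher by 0.27 (SE 0.08, 1.21-fold, adjusted p = 0.0383 by limma) on 1 of 3 tested probe sets, at 7.94 to 8.55 in M1 and 7.88 to 8.08 in A46, and the other 2 gave -0.09 and 0.00. Its difference was 0.45 in animal 1, 0.32 in animal 2 and 0.04 in animal 3. KIF27, another cilium-associated kinesin, did not pass (-0.21 and -0.28). Of 7 annotated genes of ciliated ependymal and choroid plexus cells 5 were tested, and 1, RSPH1, differed and was lower in M1 (-0.40, SE 0.09, adjusted p = 0.0085). The mean log2 intensity of that list was 5.914 to 5.997 on M1 arrays and 5.92 to 6.09 on A46 arrays. Its part in the KIF6 and KIF9 values was not tested.

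KIF20B, a kinesin of cytokinesis that also acts in the polarity of young neurons in mice, fell on 1 of 3 tested probe sets. Its M1 arrays ran from 8.89 to 9.23 with a median of 9.001, against 9.14 to 9.48 with a median of 9.21 in A46. The difference was -0.21 (SE 0.06, 1.16-fold, adjusted p = 0.0268 by limma) and was negative in all 6 matched pieces, while the other 2 probe sets gave -0.04 and -0.11. The spindle motors KIF4A, KIF18A, KIF23 and KIF2C lay below the intensity filter, and KIF22 did not pass (0.02). Of 8 annotated genes of dividing cells, 5 (MKI67, TOP2A, CCNB2, CDK1 and CENPF) lay below the filter, and the 3 tested gave 0 calls, with a list mean of 5.27 to 5.37 on M1 arrays and 5.24 to 5.40 on A46 arrays.

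All 7 tested tubulin probe sets, which name 3 genes, had negative M1 minus A46 differences, of which 1 passed. Of all probe sets 46.9% had positive differences. TUBB, a beta-tubulin expressed in most cell types, had 11.29, 11.46 and 11.51 as lowest, median and highest log2 intensity in M1, against 11.46, 11.61 and 11.72 in A46. The ranges overlapped at their edges, and all 6 matched pieces were lower in M1. The difference was -0.18 (SE 0.05, 1.13-fold, adjusted p = 0.0374 by limma), and the second TUBB probe set gave the same value to 2 decimals (-0.18, SE 0.06, adjusted p = 0.0528). TUBB3, the beta-tubulin of neurons, did not pass on 4 probe sets (-0.16 to -0.01, lowest adjusted p = 0.113), nor did TUBA4A (-0.06, 95% interval -0.17 to 0.06). Tubulin genes are close copies of one another, and the TUBB probe set that passed carries the suffix that Affymetrix gives to sets matching several transcripts, as do those of DCTN6 and KIF9, so these 3 values may include other transcripts.

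**Figure D3:**
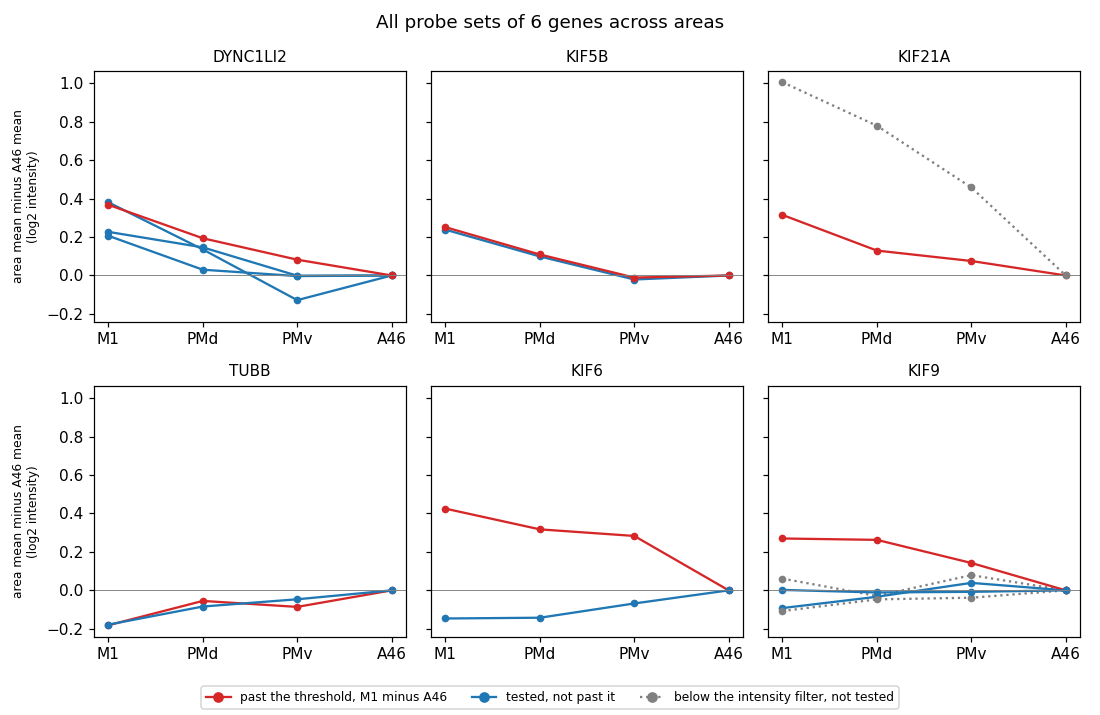
Mean log2 intensity of each area minus that of A46, for every probe set of DYNC1LI2, KIF5B, KIF21A, TUBB, KIF6 and KIF9, with areas on the horizontal axis. Red lines passed in M1 minus A46, blue lines were tested and did not pass, and dotted grey lines lay below the intensity filter. In M1 all probe sets of DYNC1LI2, KIF5B and KIF21A lie above 0 and both of TUBB below it, while those of KIF6 and KIF9 lie on both sides.

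Of the 37 tested genes 18 had more than 1 tested probe set. In 12 of these all probe sets gave one sign in M1 minus A46 and in 6 the signs differed, and in 0 of them did a second probe set pass. Of the 11 genes with a call, 7 were among these 18.

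In all 11 probe sets with a call the PMd mean lay between those of M1 and A46, and so did the PMv mean in all but KIF5B. Choosing probe sets by M1 minus A46 favours premotor means in between. How often this holds over all probe sets called was not examined. Of the 8 called higher, 6 had area means falling in the order M1, PMd, PMv, A46. The 3 called lower cannot have this order. PMv means here and above include the left PMv arrays of animals 1 and 2, which stood apart. For KIF21A these were at 8.28 and 8.38, against 8.69 and 8.77 in the right pieces. The order without them was not examined. In M1 minus premotor (PMd and PMv averaged) limma called 0 of 65 members against 2.16% of all probe sets (1.52% higher, 0.637% lower). At an unadjusted p under 0.05 there were 13 members (20%), against 12.3% of all, and DYNC1LI2 (0.23, SE 0.06, adjusted p = 0.0763) came closest. In premotor minus A46 it called 0, against 3.35% of all (1.87% higher, 1.48% lower). Unadjusted there were 11 (16.9%), against 20.05% of all, and KIF6 came closest (0.30, SE 0.08, adjusted p = 0.064). In PMd minus PMv it called 0, against 0.00758% of all. Unadjusted there was 1 (1.54%), a KIF3B probe set at 0.26 (95% interval 0.02 to 0.50), against 5.40% of all. The ranges of these differences over the members were -0.16 to 0.38 for M1 minus premotor and -0.38 to 0.30 for premotor minus A46.

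No member passed between hemispheres. In left minus right, over 12 pairs of pieces, limma called 0 of 65 members, against 0% of 26383 probe sets. At an unadjusted p under 0.05 there were 5 (7.69%), against 7.66% of all. The largest difference was that of the second KIF6 probe set (0.15, 95% interval 0.04 to 0.25, adjusted p = 0.534), followed by DCTN5 (0.12, 95% interval 0.01 to 0.24, adjusted p = 0.605). The test for a left minus right difference that varies with area called 0 members, against 0% of all, and unadjusted 2 (3.08%), against 4.22% of all. These p-values treat the 12 pairs from 3 animals as independent. With 1 mean difference per animal, left minus right called 0 members and 38 of 26383 probe sets.

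**Figure D4:**
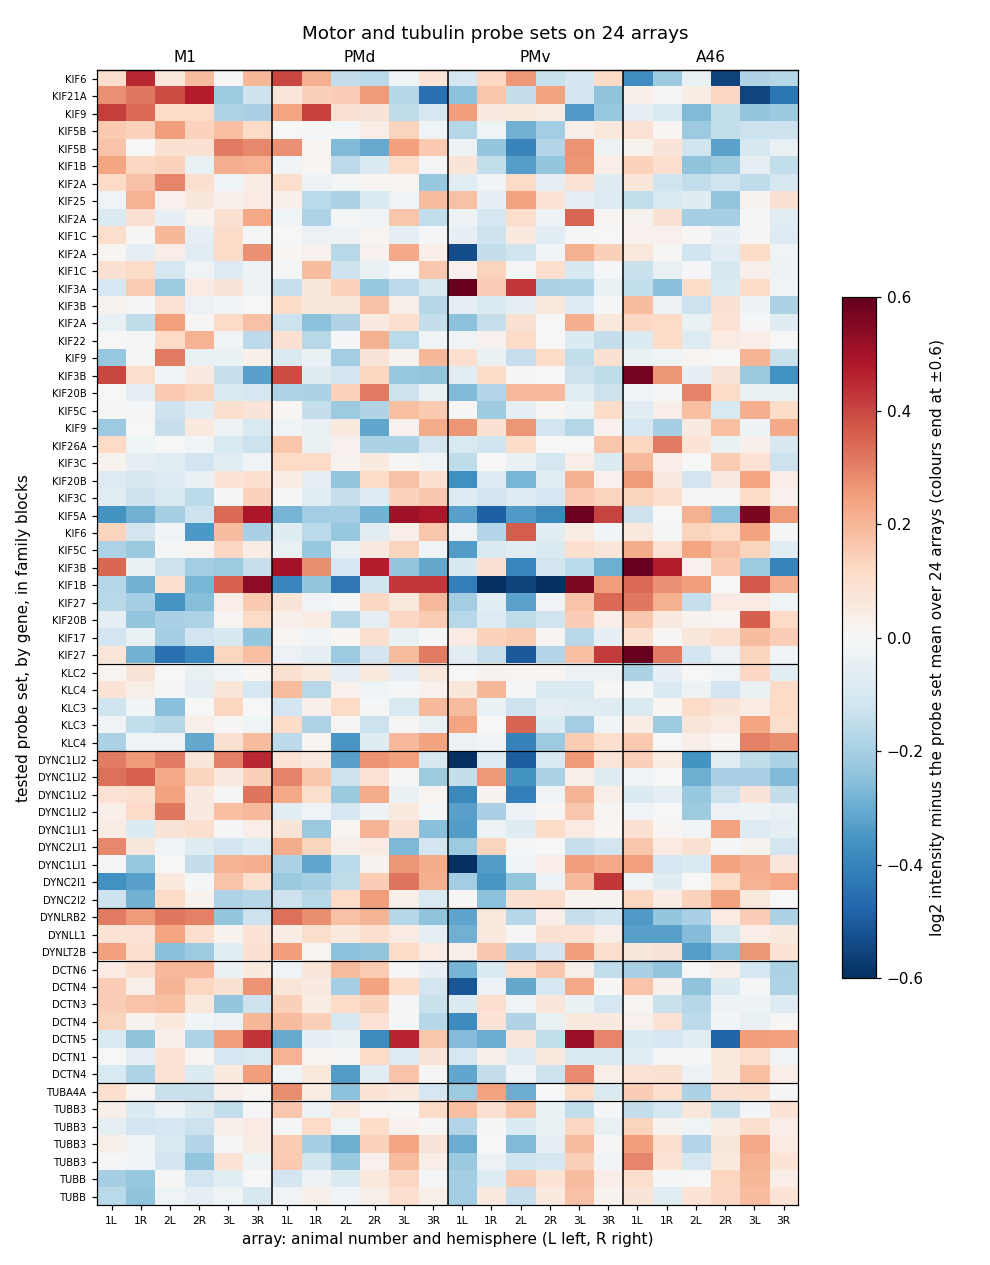
Log2 intensity of the 65 tested probe sets (rows, in family blocks) on 24 arrays (columns, by area, animal and hemisphere), each row shown as its distance from its own mean over the arrays, with colours ending at ±0.6. KIF5A is above its mean on all 8 arrays of animal 3, in each of the 4 areas.

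Animals took the highest share of the variance in 31 of 65 members (47.7%) and areas in 16, against 9602 (36.4%) and 6897 of all 26383 probe sets. Over the 12 means of an animal and area, the animal took a median of 35.2% of it over the members and the area 26.8%, against 29.4% and 25.9% over all probe sets tested. KIF5A was the member with the widest range between animals, with 90.1% of its variance between them. Its 8 arrays of animal 3 had 10.08, 10.32 and 10.42 as lowest, median and highest log2 intensity, those of animal 1 had 9.34, 9.55 and 9.83, and those of animal 2 had 9.44, 9.60 and 10.04. Every array of animal 3, in each area and hemisphere, was above every array of the other animals. DCTN5 showed the same arrangement, at 7.18 to 7.54 in animal 3 against 6.54 to 7.09 in the others, and 1 probe set of KIF3B the opposite, at 7.13 to 7.36 in animal 3 against 7.38 to 8.07. Such a separation of any 1 animal was seen in 5 of 65 members (7.69%), against 3.17% of all probe sets. It was animal 1 in 0 members (0.948% of all), animal 2 in 2 (0.785%) and animal 3 in 3 (1.59%). Animal 3 is the only female, so sex and individual cannot be told apart, and no test was made on 1 animal.

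Genes that work with the motors were examined as lists. Their counts with all arrays are to be read against the 12.9% of all probe sets called in M1 minus A46. Of 23 tested motor adaptors and dynein regulators 2 rose and 2 fell in M1 relative to A46, with a median of -0.10. BICDL1, an adaptor that joins dynein to secretory vesicles (0.33, SE 0.07), and FEZ1, a kinesin-1 adaptor (0.21, SE 0.06), rose, and HOOK1, a dynein adaptor (-0.25, SE 0.07), and MAPK8IP3, which joins kinesin-1 and dynein to axonal cargo (-0.29, SE 0.09), fell. Of 21 microtubule-associated proteins and regulators 2 rose and 1 fell, with a median of 0.01. These were the stathmins STMN2 (0.25, SE 0.06) and STMN4 (0.26, SE 0.08), which bind free tubulin, and the linker protein CLIP3 (-0.26, SE 0.05). Of 18 tubulin-modifying enzymes and chaperones 1 rose, the chaperonin subunit TCP1 (0.21, SE 0.06), and of 5 other tubulin genes 0 passed. The adaptor, microtubule-associated protein and tubulin-modifying lists had 4, 3 and 1 calls in all. Each had 0 without animal 1, without animal 2 and without the animal as a block, and they had 11, 5 and 2 without animal 3. Of all 26383 probe sets, 1648 were called without animal 1, 403 without animal 2 and 1056 without the block. Without animal 3 it was 5410, against 3391 with all arrays.

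Of 6 tested neurofilament and axonal cytoskeleton genes 3 rose and 0 fell, with a median of 0.16. NEFH, the neurofilament heavy chain (2.24, SE 0.08), the spectrin SPTBN1 (1.23, SE 0.12) and the ankyrin ANK3 of the axon initial segment (0.36, SE 0.08) passed. The intermediate filament PRPH (-0.05), the spectrin SPTBN4 (-0.09) and the ankyrin ANK2 (-0.04) did not. Leaving out animal 2 left 2 calls in this list, and leaving out animal 1 or animal 3 left 3. Of all 26383 probe sets, 403 were called without animal 2, 1648 without animal 1 and 5410 without animal 3.

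Oligodendrocyte markers were higher in M1. Of 8 tested oligodendrocyte markers 7 rose, with a median difference of 1.21, and the list's mean log2 intensity was 9.71 to 10.32 on M1 arrays and 8.47 to 8.99 on A46 arrays, with no overlap, and 7 passed without each animal in turn. For 10 astrocyte markers (2 rose) the list mean was 10.37 to 10.59 on M1 arrays and 10.22 to 10.39 on A46 arrays. For 8 neuron markers (3 rose) it was 10.57 to 10.68 and 10.44 to 10.58, and all 8 annotated neuron markers passed the intensity filter. STMN2 was among the 3 that rose and is also counted in the list of microtubule-associated proteins. Of 11 microglia markers 2 rose and 1 fell, and of 7 endothelial markers 1 rose, where 12.9% of all probe sets were called. The calls among astrocyte, neuron, microglia and endothelial markers numbered 0 in each list without animal 2. Without animal 1 they numbered 2, 1, 0 and 0, and without animal 3 they numbered 3, 6, 3 and 0. Among all 26383 probe sets the calls without animals 2, 1 and 3 numbered 403, 1648 and 5410. With so few calls of any probe set, 0 in a short list without animal 2 says little about that list. The lowest mean log2 intensity of any listed gene on the array was 3.54. The part of these cell types in the values of KIF5B, DYNC1LI2 and the other motors was not tested. The actin control probe sets, brighter at the 3′ end where RNA is degraded, differed between ends (3′ minus 5′, log2) by 0.81 to 1.07 on M1 arrays and 0.82 to 1.23 on A46 arrays. Those of GAPDH differed by 0.86 to 1.09 on M1 arrays and 0.78 to 0.93 on A46 arrays, and their part in the results was not tested.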

How the data were processed

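The deposited values are intensities, 1 per probe set and not logged, made with RMA per the submitters' processing notes. Its version, and which arrays it normalised jointly, were not given in the sources. Array medians were 47.9 to 51.7, and any 2 arrays correlated at 0.977 to 0.997 over log2 values. Arrays have no read depth, and 3 animals limit the precision. RMA removes shifts common to all transcripts. Gene symbols came from the platform's annotation, and all 54 member genes were found in RefSeq through their Entrez IDs.

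Intensities were converted to log2 and 99 control probe sets removed. Left and right pieces of an area were averaged within each animal. Using limma 3.58.1 in R 4.3.3, a model was fitted to 26383 probe sets above the median intensity, with area and animal as terms and an intensity trend (6 residual degrees of freedom). The animal is the block because the same 3 animals gave every area; means of one animal correlated at 0.207 to 0.85 after area means were removed. Left minus right used 24 arrays with 12 pairs as a block. p-values were adjusted by Benjamini-Hochberg over all probe sets, and tests were two-sided. The fit was checked on simulated data.

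Members named were every gene past the threshold, up to 4 brightest per family, and a list of 36 genes, of which 15 are on no probe set here and 18 were tested. For other lists the brightest probe set stood for a gene and up to 4 with the smallest p were named. Members and lists were chosen with earlier results of these data known.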

Additional observations from a re-analysis of the deposited data

Results flagged for a closer look

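Array values that stood apart were looked for among the 11 probe sets with a call, in each area's 6 arrays. In 3 of 44 such groups one array's gap to the next, as a share of the range, exceeded Dixon's 95% critical value, where chance gives about 1 in 20. DYNLL1 was at 12.07 on the left PMv array of animal 1, with the other 5 at 12.36 to 12.45, and at 12.30 on the right PMd array of animal 3, with the others at 12.40 to 12.46. KIF2A was at 8.65 on the left A46 array of animal 1, with the others at 8.42 to 8.47. The left PMv array of animal 1 also had the lowest median correlation with the other arrays, 0.984.

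The KIF21A probe set below the intensity filter lies outside the tests of the report, and its M1 minus A46 difference of 1.01 exceeded the 0.43 that was the highest among the tested members.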

How the results depend on the processing

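All 11 probe sets called in M1 minus A46 kept their sign under every alternative that tested them, and 0 reversed. Most of these alternatives could not reverse a sign. The sign was the same in all 3 animals, so leaving 1 out could not change it. Changing the filter, block, trend or PMv arrays leaves the difference itself as it was. Counts of members called are given here with those over all probe sets in brackets, of 26383 unless stated. The 11 of 65 (3391) was 5 of 99 without the intensity filter (3149 of 52766). It was 12 of 49 with a filter at the 75th percentile (2746 of 13192) and 10 of 37 with 1 probe set per gene (1750 of 10043). After quantile normalisation it was 15 (4361), and with 24 arrays and a random block 15 (4390). It was 5 without an intensity trend (3147), 0 in left (1263) and 5 in right hemispheres alone (2861). With the animal left out as a block it was 1 (1056). Leaving out 1 animal gave 0 without animal 2 (403) to 20 without animal 3 (5410). For any area difference the count of 1 (1723) was 2 without the filter (1721 of 52766) and 5 after quantile normalisation (2581). It was 0 without the block (288), 0 in left (526) and 2 in right hemispheres (1426). With 24 arrays and a random block it was 8 (3126), and with 1 animal left out 0 to 18 (129 to 7754). For M1 minus premotor the 0 (570) became 2 with 24 arrays (965), and 0 to 5 with 1 animal left out (25 to 1370). For premotor minus A46 the 0 (884) became 1 without the filter (779 of 52766) and 2 after quantile normalisation (1768). It was 1 in right hemispheres (546), 3 with 24 arrays (2131) and 1 with 1 probe set per gene (530 of 10043). With 1 animal left out it was 0 to 10 (16 to 5731). PMd minus PMv gave 0 to 4 with 1 animal left out (0 to 1398), and both hemisphere tests 0 throughout (at most 38). Leaving out single arrays was chosen after seeing the data. Without the left PMv array of animal 1 there were 15 calls in M1 minus A46 (4182) and 3 for any area (2292). Without that of animal 2 there were 11 (3345) and 2 (1612). The causes were not tested.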
